A study of Mus musculus with 30 samples.

Results

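Cd4, Cd8a and Cd8b1 encode the coreceptors of T cells, and Zbtb7b encodes ThPOK, the transcription factor of the CD4 lineage. The accessible sites of these 4 genes were taken as all peaks of the 26-library table whose nearest protein-coding gene body, within 100 kb, was one of them, which gave 16 of 69316 peaks: 3 at Cd4, 4 at Cd8b1, 3 at Cd8a and 6 at Zbtb7b. Accessibility was measured by ATAC-seq, in which a transposase cuts open chromatin and the reads that fall in a peak are counted, in mouse T cells sorted from lymph nodes and spleen. The 26 libraries form 13 groups of 2.

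All groups were sorted as CD4+, so the product of Cd4 was itself a sorting marker, and all but the DKO groups, for which no strain was given, are labelled C57BL6/J. An hCD2 reporter in the Foxp3 gene (Foxp3-IRES-hCD2) marked the regulatory T cells (Treg). WT Treg were CD4+hCD2+ and WT Tconv, the conventional T cells, CD4+hCD2-. Central Treg (cTreg, CCR7hiCD62LhiCD44lo) and effector Treg (eTreg, CCR7loCD62Llo) were hCD2+, and naive cells (Tnaive) and effector cells (Teff) were the hCD2- populations of these same gates. BATFKO Treg carried Foxp3-IRES-hCD2.Batf-/-. Foxp3R397W Treg, with a Foxp3 allele that carries an amino acid change, were CD4+hCD2+GFP- cells of Foxp3R397W-IRES-hCD2/Foxp3-IRES-GFP animals, and their control carried Foxp3WT-IRES-hCD2/Foxp3-IRES-GFP. DKO Treg lacked both factors (Foxp3KO-IRES-hCD2.Batf-/-), received mock, Foxp3, BATF or both retroviruses (mockRV, Foxp3RV, BATFRV, Foxp3BATFRV), and were sorted as CD4+hCD2+ cells that were Thy1.1+, GFP+, CD45.2+ and CD45.1-. Their column names add "vivo". By their titles the first 7 groups were ATAC-seq and the others omniATAC-seq. The labels do not say that libraries came from separate animals, so the spread behind each p-value is that between 2 libraries of a group and may be technical.

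During thymic development, cells that carry both coreceptors choose either CD4 or CD8. ThPOK is required for the CD4 choice and keeps the CD8 genes and the cytotoxic program silent in CD4 T cells, while Runx factors act on the other side and repress Zbtb7b and Cd4 in CD8 T cells. The Cd8a and Cd8b1 genes lie next to each other and share a set of enhancers, Cd4 is controlled by upstream enhancers and an intronic silencer, and Zbtb7b holds its own silencer and enhancers. Which peak corresponds to which of these elements was not examined.

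Library names differed between the deposited tables, which touches every comparison except those within DKO Treg and those of WT Treg, BATFKO Treg and WT Tconv. Of the 18 libraries shared with the 22-library table, 12 bear another name there: the libraries called eTreg, cTreg, Tnaive, Teff, Foxp3R397W control and Foxp3R397W here are called the Foxp3R397W control, Foxp3R397W, the Foxp3KO control, Foxp3KO, cTreg and eTreg in it. The names of the 26-library table are used below. With these names the summed score of the 5 Foxp3 peaks was 585 and 640.0 in WT Treg, 657 and 630.4 in cTreg and 573 and 545 in eTreg, against 96.3 and 114 in Tconv, 98.3 and 118 in Tnaive and 51.4 and 52.8 in Teff. The 41 peaks of Ikzf2, which encodes the Treg factor Helios, summed to 4069 and 4168 in Teff and 2203 and 2181 in Tnaive. They summed to 3583 and 3584 in WT Treg and 1807 and 2322 in Tconv, so the libraries labelled Teff were high in this 1 Treg marker. The 96 peaks of Foxp3, Il2ra, Ikzf2, Ctla4 and Lrrc32 together summed to 8253 and 8518 in Teff. Their sums were 12573 and 13117 in eTreg and 6872 and 6954 in Tnaive. In eTreg minus Teff 53 of these peaks were higher and 3 lower (55.2% and 3.12%, against 8.40% and 9.07% of all peaks). The columns named Foxp3WTTreg were read as the Foxp3R397W control. 

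Libraries held 3716499 to 25462278 reads in peaks, and a log2 change at a typical peak carried a standard error (SE, median over peaks) of 0.34. T cell markers (5 of 5 genes with peaks) were accessible in every group. Among other cell types, 9 of 9 CD8 and NK cell marker genes, 3 of 6 B cell, 5 of 6 myeloid and 2 of 4 erythroid genes had peaks, and none of the genes with peaks was at 0 in a whole group.

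The Cd8 cluster lies on chromosome 6 of mm10, with Cd8b1 at chr6:71322788-71337492 and Cd8a at chr6:71373427-71379171. CD8α and CD8β, its products, form the coreceptor that binds class I MHC. Cd8b1 peak 2 (chr6:71322524-71322924) was the strongest, with its centre 64 bp outside the lower end of the Cd8b1 body. Cd8b1 peak 1 (chr6:71316431-71316831) lay 5957 bp before that end, and Cd8b1 peak 3 (chr6:71341284-71341684) and peak 4 (chr6:71352157-71352557) lay 3792 bp and 14665 bp past the other end. Cd8a peak 1 (chr6:71361270-71361670) lay 11757 bp upstream of the Cd8a body, Cd8a peak 2 (chr6:71376699-71377099) had its centre 3472 bp after the start, inside the body, and Cd8a peak 3 (chr6:71381706-71382106) lay 2535 bp past the end. The annotation used here gives gene bodies, without exons and introns.

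None of the 3 Cd8a peaks covered the Cd8a start. The 250 bases before it (chr6:71373177-71373426, + strand, RefSeq annotation of GRCm38.p6) are shown because the promoter was covered by no peak while sites on both sides of it differed strongly between populations. Capitals mark the Ets core GGAA, read on either strand, and the E-box CANNTG.

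Cd8a promoter: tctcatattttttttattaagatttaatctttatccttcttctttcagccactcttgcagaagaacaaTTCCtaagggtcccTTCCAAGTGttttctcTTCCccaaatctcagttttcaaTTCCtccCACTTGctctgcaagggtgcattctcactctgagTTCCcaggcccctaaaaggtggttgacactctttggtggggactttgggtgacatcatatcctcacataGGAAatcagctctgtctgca

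This window held 6 matches to GGAA and 2 to CANNTG, of which 1 overlaps a GGAA match. Of 32851 RefSeq promoter windows of this length, 93.4% held GGAA and 66.2% CANNTG, so neither is particular to it. The letters TGTGGT (Runx), TGANTCA (AP-1) and TGTTTAC (forkhead), searched on both strands, were found 0 times.

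Cd8 accessibility was higher in naive and central cells than in both effector populations. By mean score over all 26 libraries, Cd8b1 peak 2 (136) stood above 75.3% of all peaks. The other Cd8 peaks were low, with means of 14.1 to 24.5, above 10.1% to 27.4% of all peaks. Summed over its 7 peaks, the cluster scored 591 and 513 in Tnaive and 539 and 544 in cTreg, but 114 and 133 in eTreg and 70.5 and 51.8 in Teff. Unfractionated populations stood between: Tconv had 436 and 389, BATFKO Treg 359.8 and 419 and WT Treg 336 and 341. The order of group means in the ATAC-seq groups was Tnaive, cTreg, Tconv, BATFKO Treg, WT Treg, eTreg and Teff. In this order Tnaive overlapped cTreg, and Tconv overlapped BATFKO Treg, while the other neighbours were separated by their 2 libraries.

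**Figure D1:**
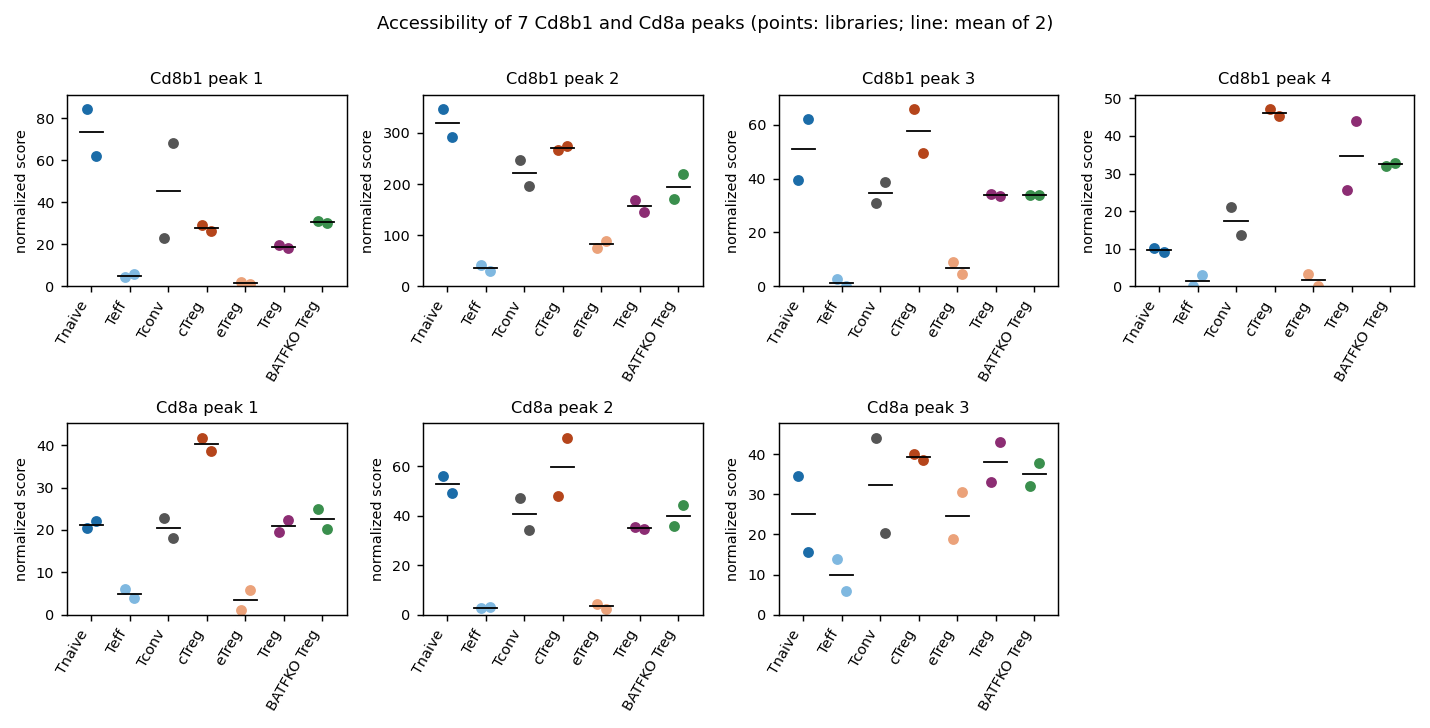
Normalized score (y axis) of each of the 7 Cd8b1 and Cd8a peaks in the 7 ATAC-seq groups (x axis); points are libraries and black lines the mean of 2. In 6 of 7 panels both eTreg libraries lie below both cTreg libraries by a wide margin, and Cd8a peak 3 shows the smallest step. At Cd8b1 peak 2, Cd8b1 peak 3 and Cd8a peak 3 both eTreg libraries lie above both Teff libraries.

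The effector step of Treg, eTreg minus cTreg, was examined first. Of the 16 peaks, 8 were lower and 0 higher in eTreg, where 37.1% of all peaks were called, 19.7% higher and 17.4% lower. Of the 8, 6 were Cd8 peaks (of 7), 2 Zbtb7b peaks (of 6) and 0 Cd4 peaks (of 3). The median log2 change of the Cd8 peaks was −3.44, against 0.03 over all peaks.

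Cd8b1 peak 2 scored 267 and 274 in cTreg and 75.3 and 89.0 in eTreg (log2 change −1.71, SE 0.24, limma adjusted p = 1.9e-06). Both eTreg libraries lay below both cTreg libraries. Cd8a peak 2, inside the gene, scored 48.0 and 71.6 in cTreg and 4.43 and 2.34 in eTreg (log2 change −3.81, SE 0.52, limma adjusted p = 9.6e-07), where it held 4 and 2 reads. Cd8a peak 1, between the genes, fell from 40.2 ± 2.26 (mean ± SD, n = 2 here and below) to 3.48 ± 3.35 (log2 change −3.44, SE 0.56, limma adjusted p = 1.4e-05). Cd8b1 peaks 3 and 4, also in the interval between the genes, were among the sites that fell. Cd8b1 peak 3 fell from 57.7 ± 11.4 to 6.77 ± 2.96 (log2 change −2.96, SE 0.66, limma adjusted p = 0.00061). Cd8b1 peak 4 held 53 and 41 reads in cTreg and 3 and 0 in eTreg, a score ratio of 27.1 with an exact 95% counting interval of 8.99 to 134 and limma adjusted p = 7.3e-06. On the outer side, Cd8b1 peak 1 held 33 and 24 reads against 2 and 1, a score ratio of 16.4 with an exact 95% counting interval of 5.34 to 82.0 and limma adjusted p = 5.5e-06. Cd8a peak 3 was the member that did not pass: it scored 40.0 and 38.6 in cTreg and 18.8 and 30.4 in eTreg (log2 change −0.69, 95% interval −1.62 to 0.24).

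The same step in conventional cells, Teff minus Tnaive, gave 10 lower and 0 higher of 16 peaks, where 40.3% of all peaks were called, 20.7% higher and 19.6% lower. All 7 Cd8 peaks and 3 of 6 Zbtb7b peaks were lower, and 0 of 3 Cd4 peaks. Cd8b1 peak 2 scored 346 and 293 in Tnaive and 40.9 and 30.3 in Teff (log2 change −3.14, SE 0.24, limma adjusted p = 2.3e-11). Cd8a peak 2 scored 56.2 and 49.2 against 2.61 and 2.93 (log2 change −3.83, SE 0.52, limma adjusted p = 7.0e-07). Both sites were thus lower in Teff without overlap. Cd8b1 peak 3 held 31 and 48 reads in Tnaive and 3 and 0 in Teff, a score ratio of 36.8 with an exact 95% counting interval of 12.1 to 182 and limma adjusted p = 9.6e-07. Cd8b1 peak 1 fell from 73.2 ± 15.6 to 5.11 ± 1.07 (log2 change −3.60, SE 0.53, limma adjusted p = 2.4e-06).

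The 3 remaining Cd8 sites had smaller or less secure steps. Cd8b1 peak 4 was already low in Tnaive, with 8 and 7 reads against 0 and 3 in Teff (score ratio 6.98 with an exact 95% counting interval of 1.97 to 37.6; limma adjusted p = 0.0065), and lost the call without Teff replicate 1 (log2 change −1.43, adjusted p = 0.19). Cd8a peak 1 scored 21.2 ± 1.13 (mean ± SD) in Tnaive and 6.10 and 3.91 in Teff (log2 change −1.91, SE 0.56, limma adjusted p = 0.0071) and lost the call without Teff replicate 2 (−1.65, adjusted p = 0.073). Cd8a peak 3 scored 34.5 and 15.5 in Tnaive and 13.9 and 5.87 in Teff (log2 change −1.26, SE 0.46, limma adjusted p = 0.027), and lost the call without Tnaive replicate 1 (−0.71, adjusted p = 0.34) or Teff replicate 2 (−0.70, adjusted p = 0.35).

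With the names of the 22-library table, neither step had a call (0 of 16), where 5.63% of its peaks were called in the Treg step and 6.06% in the conventional step. By limma, 4 and 3 of the 16 had an unadjusted p under 0.05. There Cd8b1 peak 2 had a log2 change of 0.53 (limma adjusted p = 0.21) for eTreg minus cTreg and 0.42 (limma adjusted p = 0.38) for Teff minus Tnaive. Both falls hold for the libraries as the 26-library table names them.

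The summed score of the 44 peaks at 9 CD8 and NK cell marker genes also moved with these steps. It was 6434 and 6642 in Tnaive, 4858 and 4975 in Teff, 4289 and 4785 in cTreg and 3230 and 3325 in eTreg. In eTreg minus cTreg 22 of the 44 were lower and 5 higher, against 17.4% and 19.7% of all peaks. In Teff minus Tnaive 18 (40.9%) were lower and 7 (15.9%) higher, against 19.6% and 20.7%. Among those higher was a site at Gzmk, which encodes a cytotoxic granzyme (2.88 ± 0.955 to 171 ± 1.43, log2 change 5.49, SE 0.34, limma adjusted p = 5.2e-13, in eTreg against cTreg). The part of these cells in the Cd8 result was not tested, and in bulk libraries fewer cells with an open site and a less open site in each cell cannot be told apart.

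**Figure D2:**
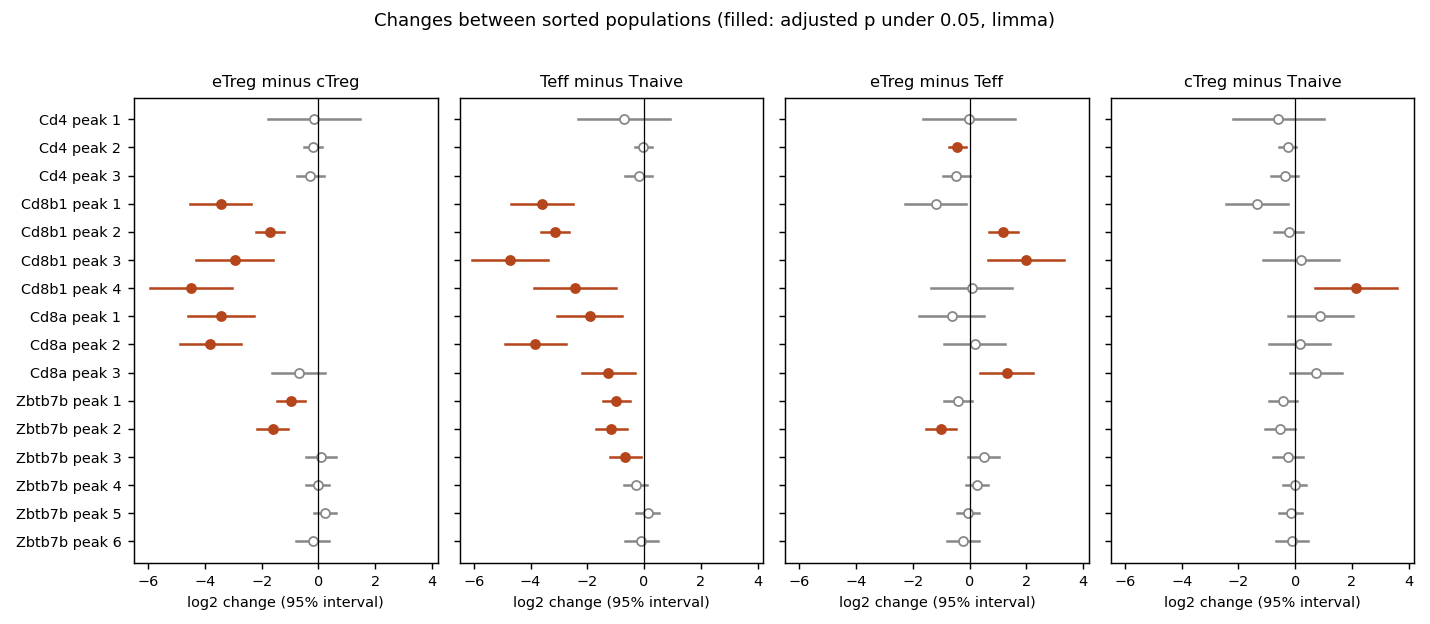
Log2 change of each of the 16 peaks (y axis) with its 95% interval (x axis) in 4 comparisons of sorted populations, where filled points have a limma adjusted p under 0.05. Filled points left of 0 mark 6 of 7 Cd8 peaks in eTreg minus cTreg and all 7 in Teff minus Tnaive, and Zbtb7b peaks 1 and 2 in both. The Cd4 points are unfilled in these steps, at −0.29 to −0.15 in eTreg minus cTreg and −0.71 to −0.03 in Teff minus Tnaive.

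Effector Treg and effector conventional cells were then set side by side. Of 16 peaks, 3 were higher and 2 lower in eTreg than in Teff, where 17.5% of all peaks were called, 8.40% higher and 9.07% lower. The 3 that were higher lay in the Cd8 cluster. Of the 44 CD8 and NK cell marker peaks, 0 were higher and 16 (36.4%) lower in this comparison, with a median log2 change of −0.45, and the part of such cells in the result was not tested. Cd8b1 peak 2 was open in eTreg at 75.3 and 89.0, above both Teff libraries at 40.9 and 30.3 (log2 change 1.19, SE 0.24, limma adjusted p = 0.00070). The call held without each of the 4 libraries in turn. Cd8b1 peak 3 held 8 and 4 reads in eTreg and 3 and 0 in Teff (score ratio 4.94 with an exact 95% counting interval of 1.33 to 27.3, limma adjusted p = 0.034). Cd8a peak 3 scored 18.8 and 30.4 in eTreg and 13.9 and 5.87 in Teff (log2 change 1.30, SE 0.46, limma adjusted p = 0.046). In all 3 the groups did not overlap, but the last 2 calls were weak. Cd8b1 peak 3 lost its call without eTreg replicate 1 (log2 change 1.58, adjusted p = 0.26), eTreg replicate 2 (2.38, adjusted p = 0.057) or Teff replicate 2 (1.05, adjusted p = 0.50), and with edgeR on the recovered reads (adjusted p = 0.077). Cd8a peak 3 lost its call without eTreg replicate 1 (1.63, adjusted p = 0.058), eTreg replicate 2 (0.97, adjusted p = 0.34) or Teff replicate 2 (0.74, adjusted p = 0.50). Named as in the 22-library table, limma called 0 of 16 peaks (0 at an unadjusted p under 0.05), with 0.00583% of all its peaks, and the log2 change was 0.24 at Cd8b1 peak 2 and −0.12 at Cd8a peak 3.

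The difference between the 2 effector steps was tested as an interaction. Of 16 peaks, 1 was called higher and 0 lower, where 3.91% of all peaks were called, 1.18% higher and 2.72% lower. That peak was Cd8b1 peak 2, which fell by 1.71 on the log2 scale in Treg and by 3.14 in conventional cells (log2 change 1.43, SE 0.35, limma adjusted p = 0.014). The difference passed in 4 of 8 fits that left out 1 library, and missed the threshold without eTreg replicate 2 (log2 difference 1.31, adjusted p = 0.075), cTreg replicate 1 (1.41, adjusted p = 0.053), Tnaive replicate 1 (1.31, adjusted p = 0.064) or Teff replicate 2 (1.22, adjusted p = 0.11). Named as in the 22-library table it was 0.10. For Cd8b1 peak 4, which was higher in cTreg than in Tnaive, the difference was −2.08 (95% interval −4.12 to −0.04, limma adjusted p = 0.30). These 2 were the peaks with an unadjusted p under 0.05 among the 16.

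Central Treg and naive cells overlapped in summed Cd8 score and differed at 1 site. In cTreg minus Tnaive, 1 of 16 peaks was higher and 0 lower, where 16.6% of all peaks were called, 8.80% higher and 7.82% lower. Cd8b1 peak 4 scored 47.1 and 45.2 in cTreg and 10.2 and 9.07 in Tnaive (log2 change 2.15, SE 0.71, limma adjusted p = 0.033). The cTreg libraries lay above the Tnaive libraries, and the call was lost without any one of the 4 libraries (log2 change 2.07 to 2.23, adjusted p = 0.10 to 0.14). Cd8b1 peak 1 went the other way, with 29.3 and 26.5 in cTreg and 84.3 and 62.2 in Tnaive, and missed the threshold (log2 change −1.35, SE 0.53, limma adjusted p = 0.084). With a pseudocount of 5 (log2 change −1.24, adjusted p = 0.015), with edgeR on the recovered reads (log2 change −1.39, adjusted p = 0.0063) or in a fit of these groups alone (log2 change −1.35, adjusted p = 0.00088) this peak was called lower, and Cd8b1 peak 4 was called higher in the same 3 settings. Named as in the 22-library table, limma called 0 of 16 peaks (0 at an unadjusted p under 0.05), with 0.00729% of all its peaks, and Cd8b1 peak 4 had a log2 change of −0.11. For Cd8b1 peak 2 the groups were 267 and 274 in cTreg and 346 and 293 in Tnaive (log2 change −0.23, 95% interval −0.73 to 0.27).

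WT Treg as a whole and WT Tconv gave no Cd8 call. WT Treg were higher at 0 and lower at 2 of the 16 peaks, 1 at Cd4 and 1 at Zbtb7b, where 10.1% of all peaks were called higher and 9.92% lower. Cd8b1 peak 2 scored 169 and 145 in WT Treg and 247 and 195 in Tconv (log2 change −0.49, 95% interval −0.99 to 0.01). The Tconv libraries disagreed at Cd8b1 peak 1, with 22.9 and 68.2, where WT Treg had 19.6 and 18.4. Without Tconv replicate 1 that peak was called lower in WT Treg (log2 change −1.79, adjusted p = 0.045). Of the 44 CD8 and NK cell marker peaks, 1 was higher and 12 (27.3%) lower in WT Treg.

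A site next to the cluster followed the same course. The peak at chr6:71307578-71307978, nearest to the gene Gm1070 and within 20 kb of Cd8b1, scored 79.2 and 76.4 in Tnaive and 8.71 and 9.78 in Teff (log2 change −2.95, SE 0.57, limma adjusted p = 0.00010). In cTreg it scored 36.4 and 20.9 and in eTreg 1.11 and 3.51 (log2 change −3.22, SE 0.57, limma adjusted p = 3.8e-05). Both effector groups lay below their resting counterparts. This peak is no member by the nearest-gene rule, and was chosen for mention after its values were seen.

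The Cd8 peaks varied together across libraries. Over the 14 ATAC-seq libraries the 21 pairs of Cd8 peaks had a median Pearson r of 0.79 (range 0.33 to 0.95), against 0.08 for the 15 pairs of Zbtb7b peaks and 0.26 for the 3 pairs of Cd4 peaks. Pairs of a Cd8 and a Zbtb7b peak had a median of 0.27, with a range of −0.51 to 0.91. These are descriptions over log2 scores that share libraries and their scaling. Among 7859 genes, the summed scores most like Cd8b1 over the 13 group means, which span both protocols, were those of Tcf7l2 (r = 0.95), Zcchc24 (0.94) and Sox4 (0.94), and those most like Cd8a were Eif4e3 (0.96), Trpm1 (0.95) and Tcf7l2 (0.93). Both loci lay themselves below the median summed score that the compared genes had to pass.

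Zbtb7b lies at chr3:89377644-89393673 on the minus strand and carried 6 peaks. The promoter entries used here give starts at 89393378 and 89387671, both inside this body. Zbtb7b peak 5 (chr3:89393535-89393935) was the highest and had its centre 357 bp before the outer start, 62 bp outside the body. Zbtb7b peak 3 (chr3:89386978-89387378) had its centre 493 bp after the inner start, and Zbtb7b peak 4 (chr3:89388865-89389265) 1394 bp before it. Zbtb7b peaks 2 (chr3:89382037-89382437) and 1 (chr3:89378315-89378715) lay deeper in the body, with centres 5434 bp and 9156 bp after the inner start. Zbtb7b peak 6 (chr3:89396363-89396763) lay 2690 bp outside the body, on the upstream side.

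The promoter entry of the outer start (RefSeq, GRCm38.p6) and Zbtb7b peak 5 share 94 bases (chr3:89393535-89393628, minus strand), inside the body near its upper end. They are shown because the site of peak 5 held its accessibility while sites deeper in the body fell. Capitals mark the Ets core GGAA alone.

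Zbtb7b promoter: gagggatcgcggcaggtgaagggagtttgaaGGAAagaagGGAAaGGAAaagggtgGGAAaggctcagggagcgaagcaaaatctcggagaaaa

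These bases held 4 matches to GGAA and 1 to CANNTG. Of the 32851 promoter windows cut to the same length, 65.3% held GGAA and 34.4% CANNTG. Matches to the Runx, AP-1 and forkhead letters given above were 0.

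The accessibility of Zbtb7b was split by site. Peaks 1 and 2, deep in the gene body, were lower in both effector populations, while the other 4 peaks, the promoter peak among them, were not called lower in eTreg. Zbtb7b peak 2 scored 85.3 and 99.2 in cTreg and 24.4 and 35.1 in eTreg (log2 change −1.62, SE 0.26, limma adjusted p = 1.2e-05). In conventional cells it scored 125 and 144 in Tnaive and 65.3 and 54.8 in Teff (log2 change −1.15, SE 0.26, limma adjusted p = 0.00071). At this site all effector libraries lay below their resting counterparts. Zbtb7b peak 1 scored 48.0 and 43.0 in cTreg and 23.3 and 22.2 in eTreg (log2 change −0.97, SE 0.24, limma adjusted p = 0.0017), and 62.6 and 59.6 in Tnaive against 33.1 and 28.4 in Teff (log2 change −0.97, SE 0.24, limma adjusted p = 0.0015). Under the names of the 22-library table the changes of Zbtb7b peak 2 were 0.37 and 0.23, and neither was called. Within 20 kb of Zbtb7b, the peak nearest to Dcst2 (chr3:89373458-89373858) is no member and was chosen for mention after its values were seen. It was lower in eTreg than in cTreg (log2 change −1.94, SE 0.38, limma adjusted p = 0.00016) but not called in Teff minus Tnaive (−0.89, limma adjusted p = 0.064). A peak nearest to Flad1 was called in neither step.

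The promoter peak, Zbtb7b peak 5, scored 183 and 182 in cTreg and 224 and 205 in eTreg (log2 change 0.23, 95% interval −0.17 to 0.63). In Tnaive it scored 209 and 198 and in Teff 229.9 and 214 (log2 change 0.12, 95% interval −0.28 to 0.52). Both intervals leave out a 2-fold fall. Zbtb7b peak 3, by the inner start, scored 86.8 and 58.3 in Tnaive and 44.4 and 45.0 in Teff (log2 change −0.66, SE 0.26, limma adjusted p = 0.046). That call was lost without Tnaive replicate 1 (−0.38, adjusted p = 0.40), Teff replicate 1 (−0.65, adjusted p = 0.14) or Teff replicate 2 (−0.67, adjusted p = 0.13), and with quantile scaling (adjusted p = 0.080). Zbtb7b peaks 4 and 6 passed in neither step, with log2 changes from −0.30 to −0.03.

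In cTreg minus Tnaive 0 of 6 Zbtb7b peaks were called, with log2 changes from −0.54 to −0.02. Zbtb7b peak 2 differed between Treg and conventional cells in the effector and in the unfractionated populations. It was lower in eTreg than in Teff (log2 change −1.01, SE 0.26, limma adjusted p = 0.0066), a call lost without eTreg replicate 1 (−0.75, adjusted p = 0.14) or Teff replicate 1 (−0.88, adjusted p = 0.083), and with the 22-library names the log2 change was 0.23. In unfractionated cells it scored 47.7 and 65.3 in WT Treg and 104 and 86.3 in Tconv (log2 change −0.76, SE 0.26, limma adjusted p = 0.040). With the 22-library table, where these libraries bear the same names, it was not called. The latter call was lost without WT Treg replicate 1 (−0.53, adjusted p = 0.31), Tconv replicate 1 (−0.62, adjusted p = 0.22) or Tconv replicate 2 (−0.89, adjusted p = 0.064).

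Summed over the 6 peaks, Zbtb7b ranged from 518 in eTreg to 672 in Tnaive among the ATAC-seq groups. Only Tnaive was separated from its neighbour in that order (cTreg, 588 and 562). The 6 groups titled omniATAC-seq had means from 977 to 1213, all above the ATAC-seq groups, and their protocol and their genotype or transduction cannot be told apart. Differences between the protocols were not tested. The T cell marker sum was likewise higher in every omniATAC-seq group (means 8330 to 10532) than in the ATAC-seq groups (4473 to 5377), while the CD8 and NK cell marker sum was not. The genes most like Zbtb7b over the 13 group means, which span both protocols, were Coasy, Dhx16 and Ube4a (r = 0.99 each).

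Cd4, at chr6:124864693-124888247, encodes the coreceptor that binds class II MHC. It had 3 peaks inside the body. Cd4 peak 3 (chr6:124887984-124888384) had its centre 63 bp inside the higher end, Cd4 peak 2 (chr6:124885136-124885536) 2911 bp and Cd4 peak 1 (chr6:124878263-124878663) 9784 bp inside it. Cd4 peak 2 was the highest of all 16 peaks by its mean score of 445, above 91.7% of all peaks, while Cd4 peak 1 averaged 11.4.

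At Cd4, 0 of 3 peaks were called in either effector step. Their log2 changes ran from −0.29 to −0.15 in eTreg minus cTreg and from −0.71 to −0.03 in Teff minus Tnaive. The summed Cd4 score was 475 and 499 in cTreg and 411 and 433 in eTreg, without overlap, while Tnaive and Teff overlapped. Cd4 peak 2 scored 391 and 410.0 in cTreg and 330.2 and 369 in eTreg (log2 change −0.20, 95% interval −0.51 to 0.11). In Tnaive it scored 503 and 460.0 and in Teff 491 and 454 (log2 change −0.03, 95% interval −0.34 to 0.28). Both intervals exclude a 2-fold change, and at Cd4 peak 2 both eTreg libraries lay below both cTreg libraries.

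The site was lower in Treg than in conventional cells in 2 of the 3 such comparisons. In WT Treg it scored 277 and 277, below both Tconv libraries at 460.4 and 382 (log2 change −0.60, SE 0.15, limma adjusted p = 0.0046), and the call was lost without Tconv replicate 1 (−0.46, adjusted p = 0.093). It was lower in eTreg than in Teff (log2 change −0.44, SE 0.15, limma adjusted p = 0.043), and this call was lost without eTreg replicate 1 (−0.36, adjusted p = 0.28), eTreg replicate 2 (−0.51, adjusted p = 0.082), Teff replicate 1 (−0.38, adjusted p = 0.24) or Teff replicate 2 (−0.49, adjusted p = 0.10). With the 22-library names the log2 change was 0.07. In cTreg minus Tnaive it missed the threshold (log2 change −0.26, limma adjusted p = 0.28). Under the 22-library table's names and peaks, WT Treg minus Tconv, whose libraries carry the same names in both tables, gave −0.37 (limma adjusted p = 0.067).

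Cd4 peak 3 scored 62.3 and 61.2 in WT Treg and 65.3 and 84.1 in Tconv, and had 0 calls in the 12 contrasts. Cd4 peak 1 held 0 to 48 reads per library and also had 0 calls. Without Tconv replicate 1, where the other Tconv library held 0 reads, it was called higher in WT Treg (log2 change 2.79, adjusted p = 0.0064). Summed over the 3 peaks, Cd4 was 345 and 345 in WT Treg and 359 and 375 in BATFKO Treg, the lowest ATAC-seq groups, and 629.6 and 565 in Tnaive, the highest ATAC-seq group. Tnaive and Teff overlapped, as did Tconv and cTreg. Genes whose summed scores were most like Cd4 over the 13 group means, which span both protocols, were Ccdc142 (r = 0.93), Ptprc (0.92) and Tgfbr2 (0.92). Ptprc encodes the phosphatase CD45, and Tgfbr2 a TGF-beta receptor chain.

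**Figure D3:**
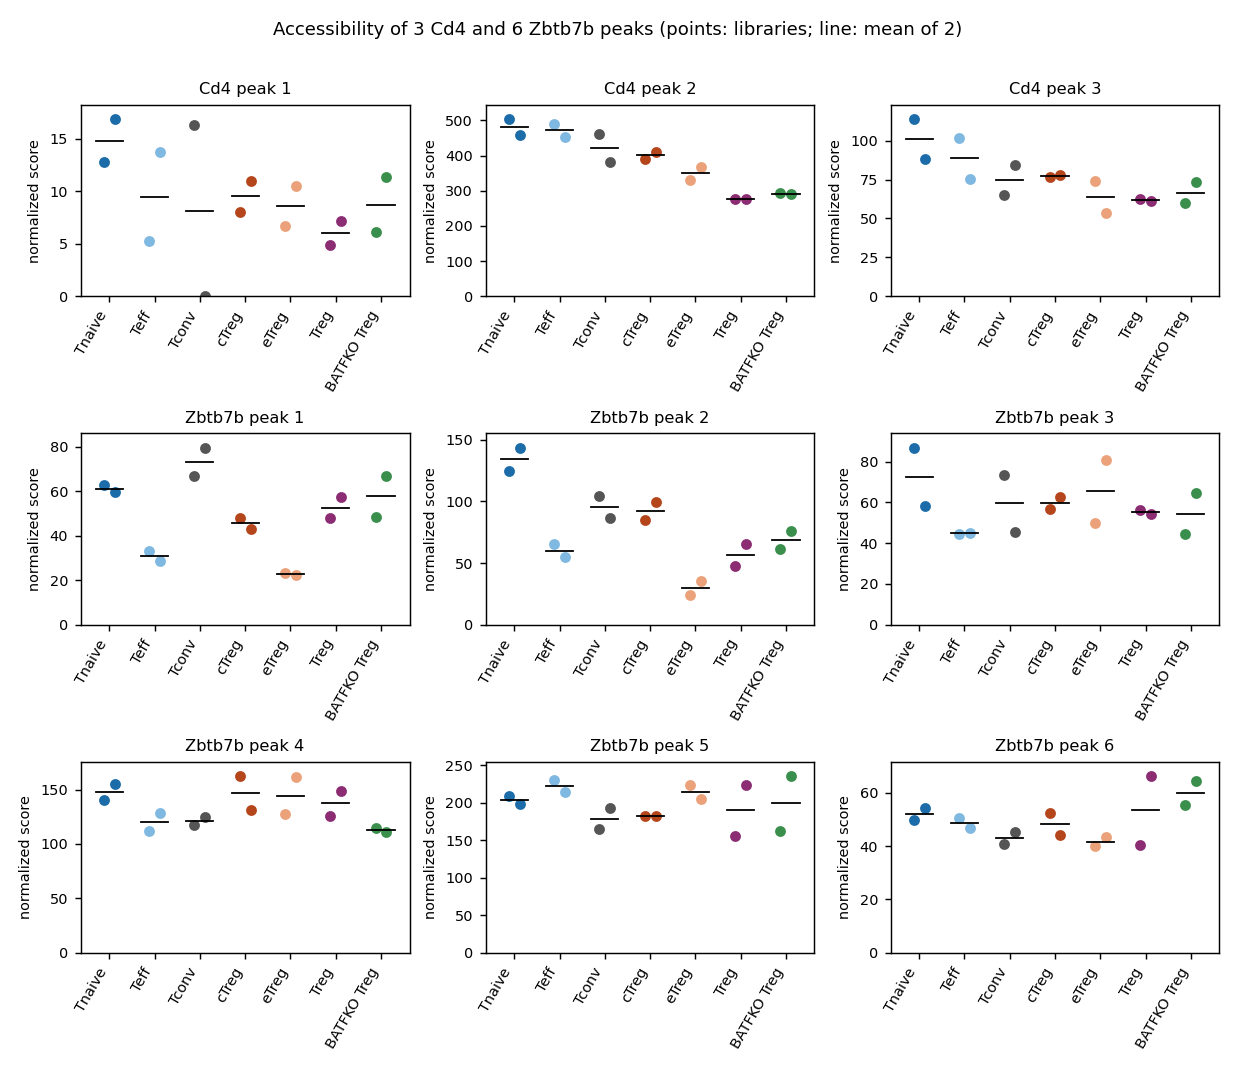
Normalized score (y axis) of the 3 Cd4 and 6 Zbtb7b peaks in the 7 ATAC-seq groups (x axis); points are libraries and black lines the mean of 2. Zbtb7b peaks 1 and 2 are low in Teff and eTreg, Zbtb7b peak 5 is level, and Cd4 peak 2 is lowest in WT Treg and BATFKO Treg.

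Lag3, the gene next to Cd4, encodes an inhibitory receptor that binds class II MHC. Of the 5 sites within 20 kb of Cd4 that are nearest to Lag3, the peak at chr6:124900383-124900783 was lower in both effector populations. It scored 185 and 209 in Tnaive, 64.4 and 87.1 in Teff, 85.3 and 119 in cTreg and 31.0 and 15.2 in eTreg. The eTreg libraries lay below the cTreg libraries (log2 change −2.16, SE 0.28, limma adjusted p = 4.4e-07) and the Teff libraries below the Tnaive libraries (log2 change −1.38, SE 0.28, limma adjusted p = 0.00021). It was also lower in WT Treg, at 55.0 and 61.2, than in Tconv, at 142 and 118 (log2 change −1.14, SE 0.28, limma adjusted p = 0.0036). Other Lag3 sites went the other way. The peak that begins at 124900952 was higher in eTreg (log2 change 0.72, limma adjusted p = 0.0099) and in Teff (log2 change 0.60, limma adjusted p = 0.031). The peak that begins at 124901848 was higher in eTreg (log2 change 1.52, limma adjusted p = 0.00011), and the one at 124903578 in Teff (log2 change 0.45, limma adjusted p = 0.033). The peak that begins at 124907786 was called in neither step. It was higher in WT Treg, at 75.8 and 61.2, than in Tconv, at 40.8 and 2.27 (log2 change 2.56, SE 0.72, limma adjusted p = 0.017). The nearest-gene rule gives these peaks to Lag3, and they were chosen for mention after their values were seen.

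BATF is an AP-1 family transcription factor. In BATFKO minus WT Treg 0 of 16 peaks passed, where 1.49% of all peaks were called, 0.0620% higher and 1.43% lower, with an unadjusted p under 0.05 for 0 peaks and 0 calls by edgeR. Cd8b1 peak 2 scored 169.9 and 219.7 in BATFKO Treg and 169 and 145 in WT Treg (log2 change 0.30, 95% interval −0.20 to 0.80). Cd4 peak 2 scored 293 and 290.5 against 277 and 277 (log2 change 0.08, 95% interval −0.23 to 0.38). The median log2 change of the 16 peaks was 0.10, against 0.03 over all peaks.

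Foxp3R397W Treg gave 0 calls of 16 against their control, where 2.63% of all peaks were called, 0.776% higher and 1.85% lower, with an unadjusted p under 0.05 for 2 peaks and 0 calls by edgeR. Those 2 were Cd4 peak 2, with 603 and 619.6 in the mutant and 477 and 423 in the control (log2 change 0.44, limma adjusted p = 0.12), and Cd8b1 peak 2, with 151 and 185 against 118 and 108 (log2 change 0.56, limma adjusted p = 0.28). At both sites the mutant libraries lay above the control libraries. A fit of these 2 groups alone called 3 peaks higher, these and Cd8a peak 2, with 3.47% of all peaks higher and 6.01% lower. The libraries that the 22-library table names Foxp3R397W and its control are those called cTreg and eTreg here, and under those names 8 of 16 peaks were higher, with 20.8% of all peaks higher and 20.5% lower.

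**Figure D4:**
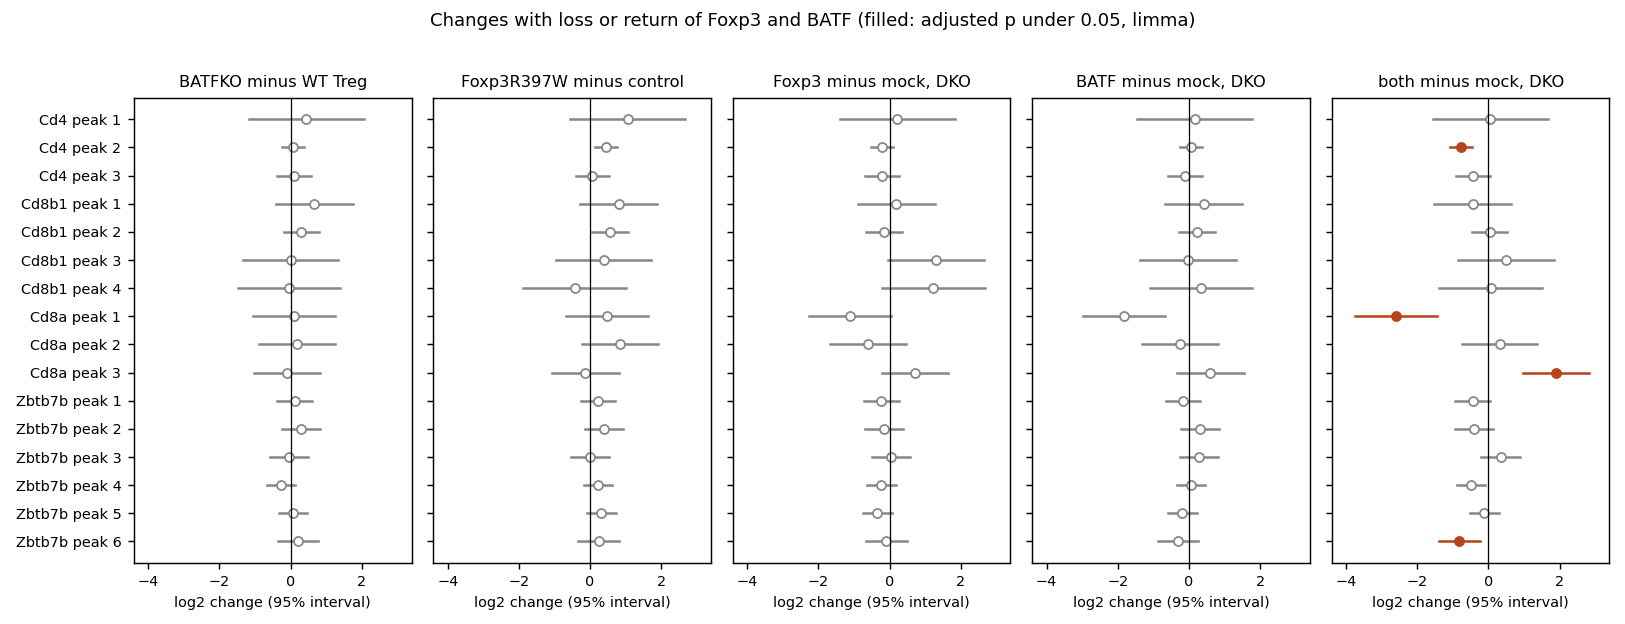
Log2 change of each of the 16 peaks (y axis) with its 95% interval (x axis) when BATF or Foxp3 was lost or changed (left) and when either or both were returned to DKO Treg (right); filled points have a limma adjusted p under 0.05. Calls appear only in the panel with both viruses, at 4 peaks.

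In DKO Treg the Cd8 cluster was lower in every virus group than in either Foxp3R397W group, the other omniATAC-seq libraries, a difference that was not tested. The mean sum of the 7 peaks was 72.6 ± 14.8 for mockRV, 74.7 ± 14.5 for Foxp3RV, 83.9 ± 17.1 for BATFRV and 88.6 ± 1.72 for Foxp3BATFRV, with each group overlapping the next in this order. The Foxp3R397W control, WT Treg measured by omniATAC-seq, had 258 and 243, with another gate and genotype. The CD8 and NK cell marker sum was 3604 and 3887 with mock virus and 2424 and 2565 in that control.

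Foxp3 alone gave 0 calls of 16 against mock virus (over all peaks 1.82% were called, 1.01% higher and 0.814% lower), with an unadjusted p under 0.05 for 0 peaks and 0 calls by edgeR. BATF alone also gave 0 (over all peaks 3.49% were called, 3.20% higher and 0.291% lower), with 1 peak at an unadjusted p under 0.05 and 0 calls by edgeR. That peak was Cd8a peak 1, with 0 and 2 reads against 5 and 5 with mock virus, limma adjusted p = 0.071. It was called lower when BATFRV replicate 2 was left out (adjusted p = 0.026).

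Both viruses together gave 1 higher and 3 lower of 16 peaks against mock virus, where 23.3% of all peaks were called, 12.9% higher and 10.5% lower. Markers of other cell types moved in this comparison. The 12 peaks at the 3 B cell markers Cd79b, Pax5 and Ebf1 (Ms4a1 and Cd79a had no peak) summed to 433 and 399 for mockRV and 785 and 824 for Foxp3BATFRV, with 6 higher and 0 lower. The 21 peaks at myeloid markers (5 of 6 genes, as Csf1r had no peak) summed to 958 and 1160 and 1844 and 2127, with 9 higher and 1 lower. Some of these sites also moved in other comparisons. In BATFKO against WT Treg, 1 B cell and 2 myeloid marker peaks were lower (8.33% and 9.52%, against 1.43% of all peaks) and 0 higher. They were led by Pax5 (62.0 to 7.51) and Cebpa (32.3 to 2.65). With BATF alone against mock virus, 1 of each was higher (8.33% and 4.76%, against 3.20% of all peaks) and 0 lower. These were at Pax5 (4.55 to 82.6) and Cebpa (1.02 to 17.4). The CD8 and NK cell marker sum was 3604 and 3887 and 3393 and 3823, with 4 higher and 9 lower of 44, and the part of these cells in the results below was not tested. Cd4 peak 2 scored 573 and 586 for mockRV, 461 and 540.3 for Foxp3RV, 574 and 633 for BATFRV and 314 and 373 for Foxp3BATFRV. With both viruses it lay below every other DKO library, and differed from mock virus (log2 change −0.76, SE 0.15, limma adjusted p = 0.00031). The departure from additive effects was −0.60 (95% interval −1.04 to −0.16, limma adjusted p = 0.18), and 0 of 16 peaks passed that test (over all peaks 1.09% were called, 0.586% higher and 0.506% lower), with an unadjusted p under 0.05 for 1 peak and 0 calls by edgeR.

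Cd8a peak 1 held 5 and 5 reads with mock virus and 0 in both Foxp3BATFRV libraries (limma adjusted p = 0.00079), which is at least 3.21-fold lower when 3 reads are taken as the limit for the pair of libraries. Cd8a peak 3 moved the other way, with 4.22 and 6.84 with mock virus and 16.5 and 31.1 with both (log2 change 1.89, SE 0.46, limma adjusted p = 0.0023). Its call was lost without Foxp3BATFRV replicate 2 (1.45, adjusted p = 0.065). So 2 sites of the same gene differed in direction. Zbtb7b peak 6, upstream of the gene, scored 109 and 133 with mock virus and 84.5 and 54.1 with both (log2 change −0.82, SE 0.28, limma adjusted p = 0.031). This call was lost without mock replicate 2 (−0.67, adjusted p = 0.21) or Foxp3BATFRV replicate 2 (−0.50, adjusted p = 0.33). The Lag3-nearest site near Cd4 scored 122 and 136 with mock virus and 37.9 and 54.1 with both (log2 change −1.49, SE 0.28, limma adjusted p = 0.00018).

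**Figure D5:**
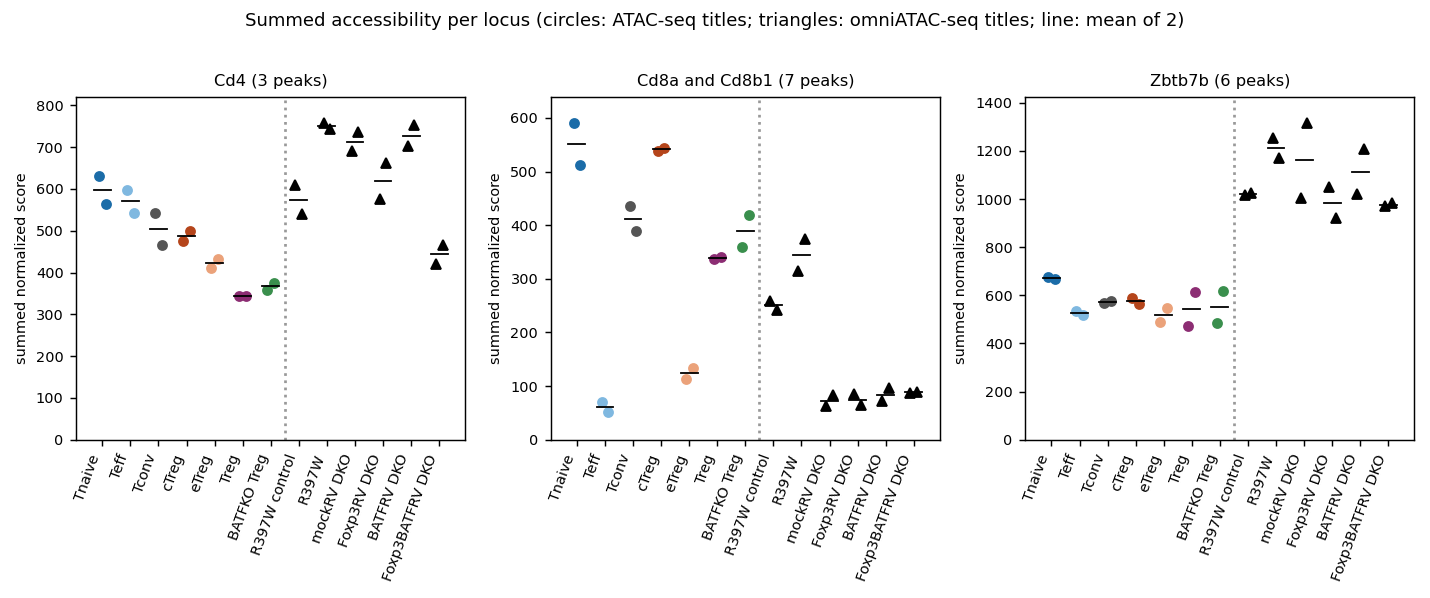
Summed normalized score (y axis) of the 3 Cd4, 7 Cd8 and 6 Zbtb7b peaks in all 13 groups (x axis); circles are ATAC-seq and triangles omniATAC-seq libraries, with the mean of 2 as a black line. The Cd8 sum is lowest in Teff and eTreg among the circles and in the 4 DKO groups among the triangles, and Zbtb7b is higher in every omniATAC-seq group than in the ATAC-seq groups.

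Genes that control the coreceptors or ThPOK were examined as a list of 17 (among them Runx1, Runx3, Gata3, Tox, Tcf7, Lef1, Satb1 and Bcl11b), with 312 peaks. In eTreg minus cTreg 42 of them were higher and 107 lower, and in Teff minus Tnaive 43 were higher and 104 lower, so that lower calls took 34.3% and 33.3% of the list, against 17.4% and 19.6% of all peaks. Its median log2 change was −0.36 and −0.26, against 0.03 and −0.01 over all peaks. The site with the smallest adjusted p in both steps was at Lef1, a partner of TCF-1 in naive T cells. It went from 156 ± 2.75 to 19.8 ± 8.09, log2 change −2.98, SE 0.23, limma adjusted p = 3.2e-11 in Treg, and from 255 ± 4.41 to 23.1 ± 0.592, log2 change −3.41, SE 0.23, limma adjusted p = 8.2e-13 in conventional cells. In eTreg minus Teff 19 were higher and 59 lower (6.09% and 18.9%, against 8.40% and 9.07% of all peaks), led by a Gata3 site (267 ± 1.11 to 57.2 ± 13.1, log2 change −2.22, SE 0.27, limma adjusted p = 7.6e-07). GATA3 is a factor that acts upstream of ThPOK.

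In WT Treg minus Tconv the list had 21 higher and 51 lower (6.73% and 16.3%, against 10.1% and 9.92%), led by a site at Tox, a nuclear factor of CD4 development that was higher in Treg (29.8 ± 2.87 to 108 ± 13.7, log2 change 1.82, SE 0.23, limma adjusted p = 9.9e-07). In cTreg minus Tnaive it had 16 higher and 23 lower, shares of 5.13% and 7.37% that were no larger than the 8.80% and 7.82% of all peaks, led by a Runx1 site that was higher in cTreg (3.86 ± 0.0393 to 37.7 ± 10.6, log2 change 2.97, SE 0.30, limma adjusted p = 1.6e-08). BATFKO Treg had 0 higher and 2 lower (0.641%, against 1.43%), with the smaller adjusted p at Bcl11b, a zinc finger factor of the T lineage (59.4 ± 7.54 to 8.45 ± 4.12, log2 change −2.74, SE 0.41, limma adjusted p = 8.8e-05). Foxp3R397W Treg had 5 higher and 3 lower (1.60% and 0.962%, against 0.776% and 1.85%). In DKO Treg the counts higher and lower were 6 and 0 with Foxp3 (1.92% higher, against 1.01%) and 11 and 1 with BATF (3.53% higher, against 3.20%). With both they were 43 and 86 (13.8% and 27.6%, against 12.9% and 10.5%). The last were led by Satb1, a chromatin organizer (317 ± 59.1 to 58.9 ± 1.85, log2 change −2.40, SE 0.18, limma adjusted p = 4.7e-11).

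The partners of the coreceptors in T cell receptor signalling (Lck, Cd3d, Cd3e, Cd3g, Cd247, Zap70, Lat, Cd2 and Cd5) had 89 peaks. Of these, 9 were higher and 22 lower in eTreg minus cTreg (10.1% and 24.7%, against 19.7% and 17.4% of all peaks). In Teff minus Tnaive 15 were higher and 21 lower (16.9% and 23.6%, against 20.7% and 19.6% of all peaks), shares near those of all peaks. The median log2 change of the list was −0.21 in both. The leading site in both steps rose, at Zap70, the kinase of the receptor complex (16.0 ± 3.82 to 144 ± 8.89, log2 change 3.11, SE 0.39, limma adjusted p = 3.2e-07 in Treg; 5.12 ± 5.41 to 83.5 ± 2.30, log2 change 4.14, SE 0.39, limma adjusted p = 1.7e-09 in conventional cells). In WT Treg minus Tconv 14 were higher and 11 lower (15.7% and 12.4%, against 10.1% and 9.92% of all peaks). With both viruses in DKO Treg 4 were higher and 11 lower (4.49% and 12.4%, against 12.9% and 10.5% of all peaks), and in BATFKO Treg 0 and 0, with a smallest limma adjusted p of 0.20, at Cd247.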

How the data were processed

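Reads in accessible sites were compared in 26 libraries of 13 groups of 2 mouse T cell samples. Per the submitters' processing notes the build was mm10 and the tools were edgeR (3.36.0, 3.38.4), DiffBind (3.0.15, 3.4.11), MACS2 (2.2.7.1) and Bowtie2 (2.4.1). Which step used which is not given in the sources used here. The deposited values are normalized signal, scores per peak made by the authors, and each library's scores were whole multiples of 1 step (100.0% within 0.02 reads), so reads were recovered by division. Libraries held 3716499 to 25462278 reads in peaks. Intervals from read counts cover counting error only.

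Peaks were assigned to the nearest of 21900 protein-coding gene bodies (RefSeq, GRCm38.p6) within 100 kb with bedtools 2.31.1. Scores were fitted as log2(score + 1) with limma 3.58.1 (R 4.3.3, trend and robust) over all 26 libraries, for 10 pairs of groups and 2 interactions, with Benjamini-Hochberg adjustment over 69316 peaks and calls at an adjusted p under 0.05. Changes on this scale understate those of low peaks. Low peaks are given as score ratios, with read intervals. Replicate numbers do not mark shared animals in the labels. edgeR 4.0.16 (quasi-likelihood, recovered reads) and other filters, scalings and designs were alternatives, the test against a 1.5-fold change having been added after seeing the data. The main fit was tested on simulated data for eTreg minus cTreg, with changes placed in peaks above the median mean score. It recovered 69 of 100 2-fold and 100 of 100 4-fold changes, with 13 false calls. Recovery at lower peaks, such as most Cd8 peaks, was not tested. Peaks given in full were, for each locus, the peak at the annotated start, the one with the highest mean score and the called peak with the smallest adjusted p per comparison and direction. Other called peaks are given as well. For each list the peak with the smallest adjusted p was named, and for likeness the 3 genes with the highest Pearson r to each locus. The members and lists were chosen with earlier results of these data known. The 22-library table served as an alternative, and the groups it alone holds were not analysed here.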

Additional observations from a re-analysis of the deposited data

Results flagged for a closer look

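Cd8b1 peak 2, at the lower end of the Cd8b1 body, was singled out because the effector steps of Treg and conventional cells differed by a test of the difference itself: the log2 difference was 1.43 (SE 0.35, limma adjusted p = 0.014). The fall was smaller in Treg, and it was one of 16 peaks tested. With 1 library left out the difference was 1.22 to 1.64, and it missed the threshold without eTreg replicate 2, cTreg replicate 1, Tnaive replicate 1 or Teff replicate 2. Under the names of the 22-library table it was 0.10 (limma adjusted p = 1.0).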

How the results depend on the processing

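Each group had 2 libraries, so the spread was estimated over all groups, and most calls outside the Treg effector step depended on single libraries. The number of the 16 peaks called changed by over 1.5 times as follows. With all 28 peaks within 20 kb of a member gene tested in place of the 16, it became 4 for WT Treg minus Tconv, 3 for cTreg minus Tnaive and 13 for eTreg minus cTreg, the last a like share of a longer list. Tested against a 1.5-fold change, chosen after seeing the data, it became 0 for WT Treg minus Tconv, cTreg minus Tnaive, eTreg minus Teff and the difference of effector steps, 5 for Teff minus Tnaive and 2 for both viruses. In fits of the contrast's groups alone it became 1 for WT Treg minus Tconv, 2 for cTreg minus Tnaive and 3 for Foxp3R397W. For cTreg minus Tnaive it was 2 with a pseudocount of 5, 0 at a mean score of at least 20 and 2 with edgeR, and for the difference of steps 2 with a pseudocount of 5. With 1 library left out it ranged from 1 to 2 for WT Treg minus Tconv (without Tconv replicate 1 both calls were lost and others, Cd8b1 peak 1 and Cd4 peak 1, were made), was 0 in every fit for cTreg minus Tnaive, and ranged from 1 to 3 for eTreg minus Teff, from 0 to 1 for the difference of steps and for BATFRV, and from 2 to 5 for both viruses. With the replicate number as a block it became 0 for cTreg minus Tnaive and 2 for eTreg minus Teff, and was 2, 8, 9, 1 and 4 for WT Treg minus Tconv, eTreg minus cTreg, Teff minus Tnaive, the difference of steps and both viruses. The calls lost under the block were Cd8b1 peak 4 in cTreg minus Tnaive, Zbtb7b peak 3 in Teff minus Tnaive, and Cd8b1 peak 3, Cd8a peak 3 and Cd4 peak 2 in eTreg minus Teff (adjusted p = 0.058, 0.070 and 0.056). Same-numbered libraries correlated at 0.04 to 0.20 in their deviations, and by the labels share only a number. In all 4 DKO groups the T cell marker sum was higher in replicate 2 than in replicate 1. It was 8855 and 11987 for mockRV, 9075 and 11351 for Foxp3RV, 9149 and 11916 for BATFRV and 9117 and 11026 for Foxp3BATFRV. The erythroid marker sum was lower in replicate 2 in each of them. Whether the DKO replicate numbers mark a shared batch is not given. The Foxp3R397W comparison was left out of the blocked fit, since the titles of its groups share no replicate numbers, though their column names do. The cause of these changes was not tested.

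In the 22-library table with its own names, peaks and scores, the number called became 0 for WT Treg minus Tconv, whose libraries bear the same names in both tables. It became 0 also for cTreg minus Tnaive, eTreg minus cTreg, Teff minus Tnaive, eTreg minus Teff and the difference of steps, and 8 for Foxp3R397W. The direction reversed at 19 called differences, since other libraries entered them. For eTreg minus cTreg the log2 changes became 0.80, 0.53 and 0.35 at Cd8b1 peaks 1 to 3, 0.45 and 0.81 at Cd8a peaks 1 and 2, and 0.19 and 0.37 at Zbtb7b peaks 1 and 2. For Teff minus Tnaive they became 1.14, 0.42 and 0.35 at Cd8b1 peaks 1 to 3, 0.41, 0.99 and 0.075 at Cd8a peaks 1 to 3, and 0.27 and 0.23 at Zbtb7b peaks 1 and 2. For eTreg minus Teff they became 0.23 at Zbtb7b peak 2, −0.12 at Cd8a peak 3 and 0.073 at Cd4 peak 2, and for cTreg minus Tnaive −0.11 at Cd8b1 peak 4. Over all settings, called differences of single peaks kept direction and call in 274 of their fits, lost the call in 73 and reversed in 19.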
